A study of Mus musculus with 4 samples.

Results

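Regions of open chromatin on chromosome 17 ranked higher on average in Ranbp2-knockout than in wild-type cells, the largest upward shift of the 19 autosomes. Other autosomes shifted as well, and chromosomes 13 and 9 moved further downward than chromosome 17 rose. Ranked by fold enrichment over the background around each peak, chromosome 17 did not rise against the other autosomes. All peaks of 4 ATAC-seq libraries were merged at any overlap of 1 bp or more, and the regions described here are the 1087 merged regions on chromosome 17 with a peak in at least 2 of the 4 lists, out of 39137 merged regions in all and 23116 in at least 2 lists. The chromosome was chosen by its share of peaks and its ranks in knockout against wild type in these same lists, so every genotype difference below is a description, with no test. In what follows, a value rose or was higher where both knockout libraries lay above both wild-type libraries, and fell or was lower in the opposite case. ATAC-seq uses a transposase that inserts adapters into accessible DNA, so that reads pile up over open promoters and enhancers. The cells were 10T1/2, an established mouse embryonic fibroblast line, either wild type for Ranbp2 (2 libraries) or knocked out with CRISPR-Cas9 (2 libraries). All groups shared this parental line, and the labels name no treatment. The knockout cells were 1 clone expanded from a single sorted cell, so a feature of that clone and an effect of the lost gene cannot be told apart. The labels do not say that the replicates were separate cultures, and differences between libraries may therefore hold technical spread only.

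Ranbp2 encodes a large SUMO E3 ligase on the outer side of the nuclear pore, which takes part in nuclear transport and mitosis. Mouse chromosome 17 carries the t-complex in its proximal part, a stretch known for inverted haplotypes that distort transmission through males. This stretch takes in the major histocompatibility complex (MHC), whose class I and class II genes present antigens. Class I genes are used in most nucleated cells, while class II genes are mainly used by immune cells. The distal part carries, among others, Runx2, the main transcription factor of bone-forming cells, and Epas1, which encodes the hypoxia-inducible factor HIF-2α.

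3 promoters in regions whose rank differed between the genotypes are printed, each as the 250 bases before its annotated start, from RefSeq on build GRCm38.p6. Pim1 (chr17:29490535-29490784, plus strand), a growth-promoting kinase gene, lay in a region that ranked higher in knockout, as did Dusp1 (chr17:26508473-26508722, minus strand), which encodes a phosphatase that switches off MAP kinases. Msh6 (chr17:87974800-87975049, plus strand), a DNA mismatch repair gene, lay in a region that ranked lower. Msh6 was named by a rule on the size of its change, and Pim1 and Dusp1 were chosen after their values had been seen. Pim1 and Dusp1 are not typical of the chromosome. At both, coverage around the peak (the local background) overlapped between the genotypes. It was higher in knockout at 81.5% of the 313 gene-end regions of the chromosome open in all 4 lists. Capitals mark matches on either strand to 7 motifs, which were the CCAAT box (CCAAT), the GC box (GGGCGG), the AP-1 element (TGANTCA), the E-box (CACGTG), the ETS element (CCGGAAG), the TATA element (TATAAA) and the cAMP response element (TGACGTCA). Matches that touch or overlap run together.
Pim1: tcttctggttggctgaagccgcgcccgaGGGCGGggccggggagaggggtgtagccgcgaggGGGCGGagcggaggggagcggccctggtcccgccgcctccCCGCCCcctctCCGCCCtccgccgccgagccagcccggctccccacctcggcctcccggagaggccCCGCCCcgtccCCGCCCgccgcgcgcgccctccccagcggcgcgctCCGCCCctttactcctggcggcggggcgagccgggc
Dusp1: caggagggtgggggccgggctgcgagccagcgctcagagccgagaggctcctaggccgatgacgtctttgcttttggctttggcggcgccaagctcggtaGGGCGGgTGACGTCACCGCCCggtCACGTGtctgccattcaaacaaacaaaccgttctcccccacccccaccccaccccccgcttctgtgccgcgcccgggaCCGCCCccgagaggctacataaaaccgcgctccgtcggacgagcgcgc
Msh6: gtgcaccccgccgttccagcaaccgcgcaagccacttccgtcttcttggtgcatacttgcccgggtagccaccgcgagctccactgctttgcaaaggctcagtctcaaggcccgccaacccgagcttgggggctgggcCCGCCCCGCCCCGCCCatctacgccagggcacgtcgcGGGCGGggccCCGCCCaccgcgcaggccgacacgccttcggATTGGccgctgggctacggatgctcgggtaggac
The Pim1 stretch held 7 GC boxes, the Dusp1 stretch held 3 with 1 E-box and 1 cAMP response element, and the Msh6 stretch held 5 with 1 CCAAT box. GC boxes were in 42.6% of all 21263 promoter windows of this length, E-boxes in 6.63%, CCAAT boxes in 35.4% and cAMP response elements in 1.92%. A match is only a run of letters and shows no binding.

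The lists differed in length, with 33721 and 18511 peaks in wild type 1 and 2 and 13877 and 24292 peaks in knockout 1 and 2, and the number of reads behind each list is unknown. Of the 12 fibroblast marker genes looked up, 4 had a gene-end peak in all 4 libraries (Col1a2, Vim, Fn1 and Lox) and 3 in none (Pdgfra, Prrx1 and Dcn). The number with a gene-end peak was 9 and 7 in wild type 1 and 2 and 4 and 5 in knockout 1 and 2, and Pdgfrb and Twist1 had one in both wild-type lists and in neither knockout list. The part of these differences in the results below was not tested. Epithelial, endothelial and pluripotent markers had no gene-end peak in any library, and of 3 immune markers only Cd68 had one, in knockout 2.

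Chromosome 17 took a larger share of the peaks in both knockout lists. It held 1484 peaks of wild type 1, which is 4.54% of its autosomal peaks (Wilson 95% interval 4.32 to 4.77, counting error only), and 844 peaks of wild type 2, which is 4.70% (4.40 to 5.02). It held 748 peaks of knockout 1, which is 5.57% (5.19 to 5.97), and 1294 peaks of knockout 2, which is 5.52% (5.24 to 5.82). The 2 genotypes did not overlap, and the replicates of each lay within the counting error of one another. The difference in share was 0.926 percentage points.

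The regions were mostly shared between the genotypes. Of the 1087, 594 (54.6%, Wilson 95% interval 51.7 to 57.6) were open in all 4 lists, against 47.2% of the 21310 comparable regions on the other autosomes. Presence followed the length of the lists, with 98.0% and 75.5% of the regions in the wild-type lists and 64.5% and 91.8% in the knockout lists, where the other autosomes had 97.8% and 77.8%, and 56.8% and 86.5%. Chromosome 17 was thus above the other autosomes by several points in both knockout lists and level with them or slightly below in the wild-type lists. Only 17 regions were in both knockout lists and no wild-type list (1.56%, background on other autosomes 1.6%), which is close to that background in the lists as deposited. Regions in both wild-type lists and no knockout list numbered 79 (7.27%), below the background of 11.4%. Both counts moved strongly with list length, and with all lists reduced to their best 13877 peaks they became 61 (8.18%, other autosomes 6.88%) and 40 (5.36%, other autosomes 8.51%). A further 755 regions of chromosome 17 were in a single list and were not followed, 418 of them in wild type 1 and 286 in knockout 2, the 2 longest lists. At the threshold of 2 lists, regions in exactly 2 lists had a median percentile of 33.5 within their own lists and regions in exactly 1 list had 15.9.

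**Figure D1:**
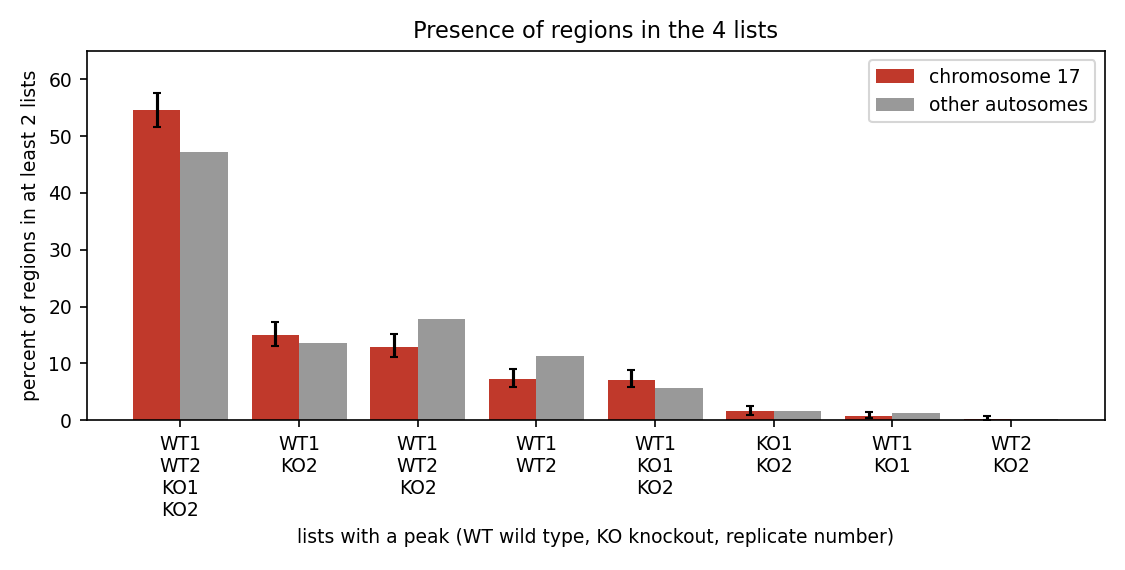
Percent of regions in at least 2 lists that had a peak in each combination of lists, for chromosome 17 (red, n = 1087, error bars Wilson 95% intervals for counting error) and the other autosomes (grey, n = 21310); WT and KO with a number are the wild-type and knockout replicates. Regions open in all 4 lists made up 54.6% on chromosome 17 against 47.2%, and regions in both wild-type lists alone 7.27% against 11.4%.

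The 594 regions open in all 4 lists could be ranked in every library, and the other 493 could not. Each was given its percentile by −log10 q, the peak caller's measure of confidence, among the 10647 autosomal regions open in all 4 lists, so that each library ranked the same regions. The mean rank on chromosome 17 lay at 50.3 and 50.5 in wild type and at 56.0 and 55.5 in knockout. The 4 knockout-minus-wild-type pairs therefore ran from 5.00 to 5.78 percentile points, while replicates of a genotype differed by at most 0.484. Relative to the other autosomes in the same library, the regions stood 0.269 and 0.575 points higher in wild type and 6.39 and 5.87 points higher in knockout, a mean difference of 5.71 points (wild type 0.422 ± 0.217 and knockout 6.13 ± 0.363, SD, n = 2 each). The mean rank change of the chromosome itself, 5.39 points, was the largest upward shift of the 19 autosomes, and chromosome 1 followed at 3.78. Chromosome 13 shifted further in the other direction, at −6.41 points, and chromosome 9 by −5.45. Region by region, 207 of 594 (34.8%) ranked higher in both knockout than in both wild-type libraries, against a background of 21.9% on the other autosomes, and 86 (14.5%) ranked lower, against 25.2%. The remaining 301 overlapped between genotypes.

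The rise in rank did not come with a rise in fold enrichment. When the same regions were ranked by the authors' deposited fold enrichment, which sets the coverage at a peak's summit against the local background around it, the difference turned to −0.804 points and 19.7% of the regions were higher, against 22.1% on other autosomes. This led to a split of the deposited values, chosen after that reversal had been seen. Fold enrichment and −log10 p together fix both the number of fragments over the summit and the caller's local background, and a whole-number summit coverage was recovered for 99.98% to 99.99% of the peaks in each list, within a relative tolerance of 1e-05. All 3 measures were then divided by the median of the other autosomes in the same library.

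Summit coverage and local background both rose on chromosome 17, and the background rose more. Summit coverage was 1.04 and 1.03 times that of the other autosomes in wild type and 1.23 and 1.21 times in knockout. The ratio of knockout to wild type, taken region by region, had a median of 1.18 (1.17 to 1.21 over the 4 pairs). Local background was 1.07 and 1.08 times that of the other autosomes in wild type and 1.40 and 1.36 times in knockout, with a median ratio of 1.25 (1.23 to 1.27). Fold enrichment was 0.966 and 0.991 times that of the other autosomes in wild type and 0.978 and 0.956 times in knockout, with overlapping genotypes and a median ratio of 1.02 (log2 −0.029 to 0.072), against 1.02 on the other autosomes. The medians of replicates differed by at most 0.066 on the log2 scale in these 3 measures.

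Counted by region, local background was higher in both knockout libraries in 492 of the 594 regions (82.8%, background on other autosomes 32.6%) and lower in 17 (2.86%, background 33.7%). Summit coverage was higher in 300 (50.5%, background 24.9%) and lower in 41 (6.90%, background 25.3%). Fold enrichment was higher in 146 (24.6%) and lower in 127 (21.4%), next to backgrounds of 25.3% and 18.8%, so by this measure the chromosome looked much like the others. Of the 207 regions with a higher rank, 86.5% also had a higher background and 64.3% a higher fold enrichment. Among the 2201 regions with a higher rank on other autosomes these shares were 59.2% and 85.6%.

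Among the 19 autosomes, the log2 change in local background ran from −0.24 on chromosome 13 to 0.32 on chromosome 17, with chromosomes 18 (0.17), 1 (0.16) and 6 (0.16) next. Summit coverage ran from −0.23 to 0.24 with the same chromosomes at the ends. Fold enrichment stayed between −0.015 and 0.064, with chromosome 17 at 0.026. Whole chromosomes thus moved in coverage and background together, and chromosome 17 moved furthest upward. The number of copies of each chromosome in the clone was not measured, and whether it differed between the genotypes was not tested.

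**Figure D2:**
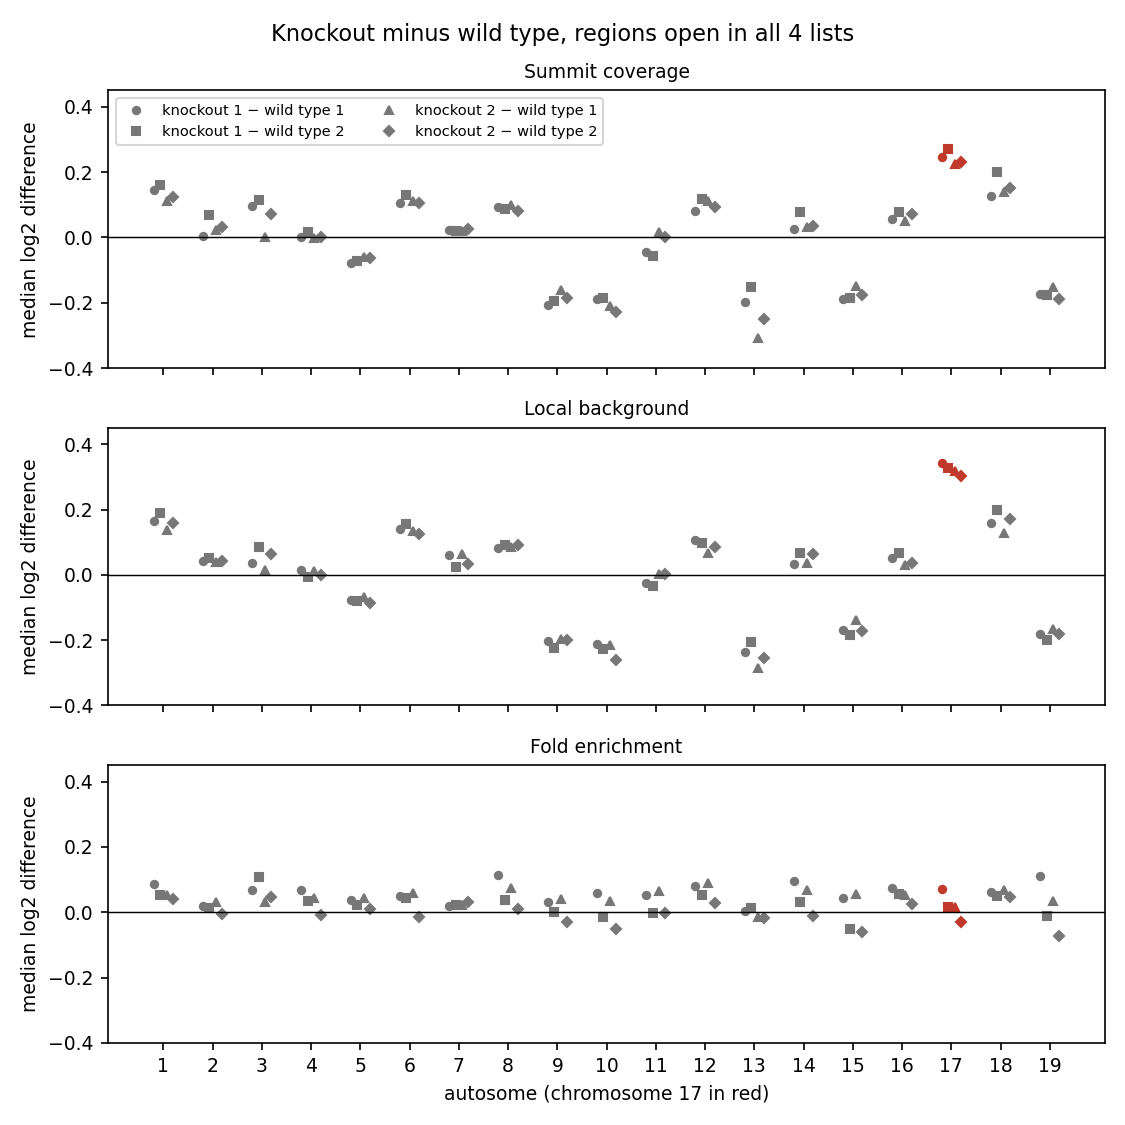
Median log2 difference between each knockout and each wild-type library for summit coverage, local background and fold enrichment, by autosome, over regions open in all 4 lists and scaled to the other autosomes' median in each library; the 4 symbols are the 4 pairs of libraries and chromosome 17 is red. Chromosome 17 has the highest background of the 19 autosomes in all 4 pairs, from 0.30 to 0.34, and lies near 0 in fold enrichment.

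Along the chromosome the rise in background was met in every window with enough regions, though not by the same amount. Of 19 fixed windows of 5 Mb, 14 held at least 20 regions open in all 4 lists, and local background was higher in all 4 pairs in all 14 of them, by 1.13 to 1.34 times. Summit coverage was also higher in all 4 pairs in 14 of 14 windows, by 1.11 to 1.30 times. Fold enrichment was higher in all 4 pairs in 2 windows (10 to 15 Mb and 85 to 90 Mb) and lower in 2 (45 to 50 Mb and 75 to 80 Mb).

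By rank, 11 of the 14 windows (78.6%) were higher in knockout in all 4 pairs, against 28% of 200 windows on other autosomes, and 1 was lower, against 30.5%. The largest rise was at 10 to 15 Mb, within the t-complex part, with mean ranks of 52.5 and 58.0 in wild type and 67.6 and 65.8 in knockout, a difference of 11.4 points. Next came 85 to 90 Mb at the distal end, with 44.2 and 44.8 against 54.4 and 52.9 (9.20 points). The window at 25 to 30 Mb, which holds Pim1 and Dusp1, had 45.9 and 45.6 against 52.6 and 54.9 (8.02 points). In each of these 3 windows the genotypes were separated by more than the replicates differed. The only window that was lower in all 4 pairs lay at 75 to 80 Mb and holds Cyp1b1, with 42.8 and 43.5 against 42.3 and 40.6 (−1.72 points). Its background was nevertheless higher in all 4 pairs. Single windows are not particular to this chromosome, since 5 of the 200 windows elsewhere had a mean difference above 11.4 points, the highest of 25.5.

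**Figure D3:**
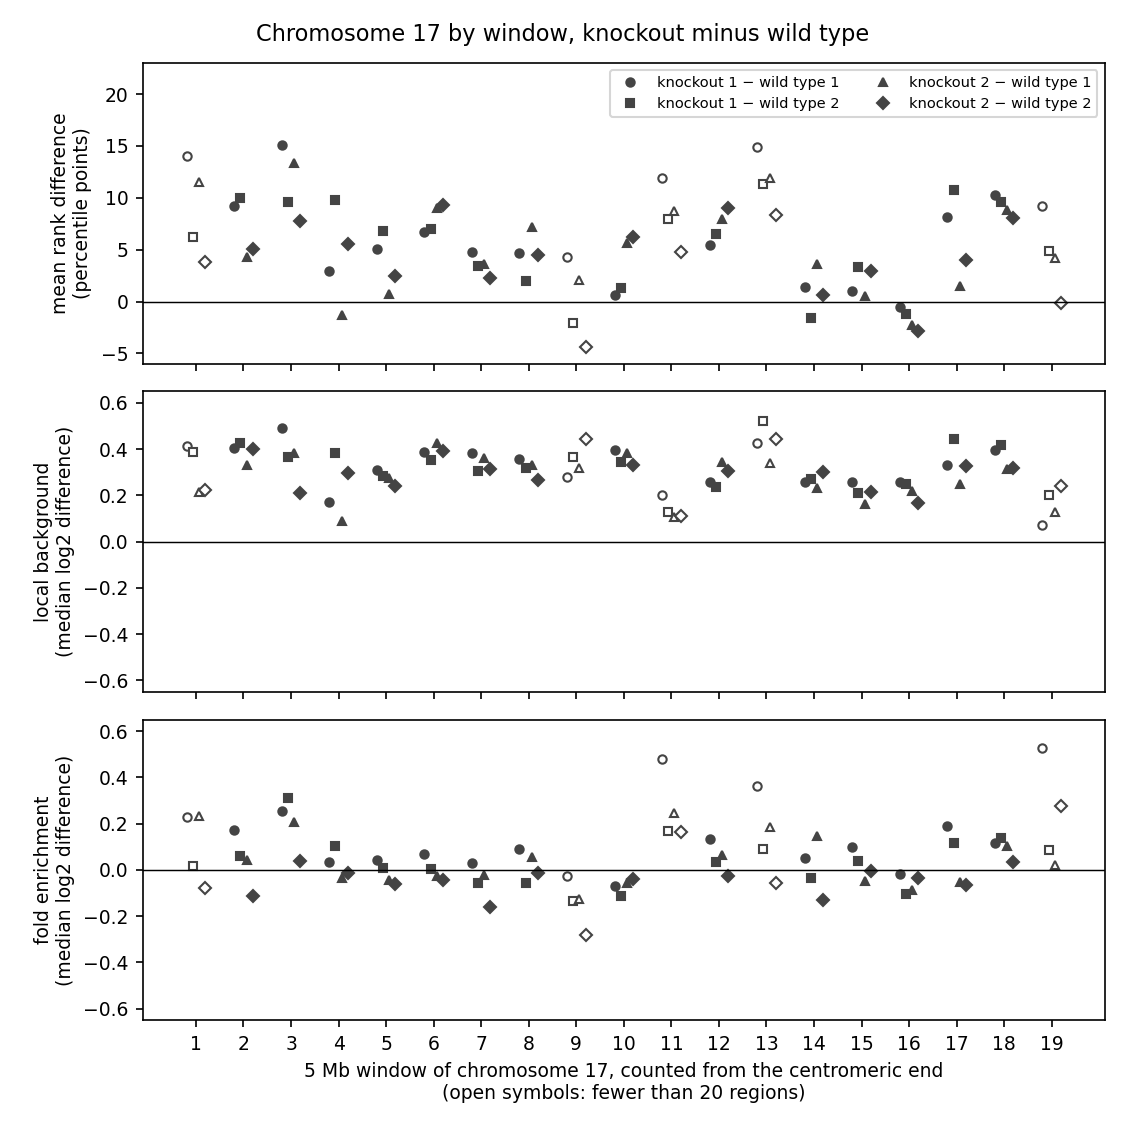
Knockout minus wild type in 5 Mb windows of chromosome 17, counted from the centromeric end, for mean percentile rank, local background and fold enrichment (median log2 difference); the 4 symbols are the 4 pairs of libraries and open symbols mark windows with fewer than 20 regions. Background lies above 0 in all pairs of all windows with at least 20 regions, rank in 11 of these 14, and fold enrichment lies on both sides of 0.

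The part before the MHC, the MHC itself (from 33996012 to 37483554, the first to the last H2 gene) and the distal part all rose. The proximal part (277 regions, 36.8% of them higher by rank) had mean ranks of 52.0 and 51.9 in wild type and 59.3 and 57.8 in knockout. The MHC (57 regions, 26.3% higher, near the 21.9% of other autosomes) had 49.1 and 52.1 against 53.5 and 54.8, and here the wild-type replicates differed by 3.01 points, nearly as much as the mean difference of 3.59. The distal part (260 regions, 34.6% higher) had 48.6 and 48.8 against 53.1 and 53.3. Local background rose by similar amounts in the 3 parts, 1.27, 1.25 and 1.23 times.

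Regions at gene ends, no more than 1 kb from the start or the 3′ end of a protein-coding gene, and regions elsewhere both rose. Gene ends took 40.5% of the 1087 regions (440) against 35.6% on other autosomes, and median widths were 234 and 230 bp. At the 313 gene-end regions open in all 4 lists the mean rank was 57.5 and 57.1 in wild type and 60.9 and 61.3 in knockout, while gene ends of other autosomes fell, from 59.1 and 58.1 to 55.1 and 57.2. The relative difference was 6.22 points. At the 281 regions elsewhere the mean rank was 42.2 and 43.2 in wild type and 50.6 and 49.1 in knockout, and on other autosomes 41.6 and 42.5 and then 44.6 and 42.7, a relative difference of 5.55 points. At gene ends 97 regions (31.0%) ranked higher and 36 (11.5%) lower, next to backgrounds of 15.1% and 26.9%. Elsewhere 110 (39.1%) ranked higher and 50 (17.8%) lower, next to 28.1% and 23.6%. Local background rose 1.22 times at gene ends and 1.28 times elsewhere, while the median ratio of fold enrichment was 1.00 at gene ends and 1.05 elsewhere, and 1.05 for regions elsewhere on other autosomes.

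**Figure D4:**
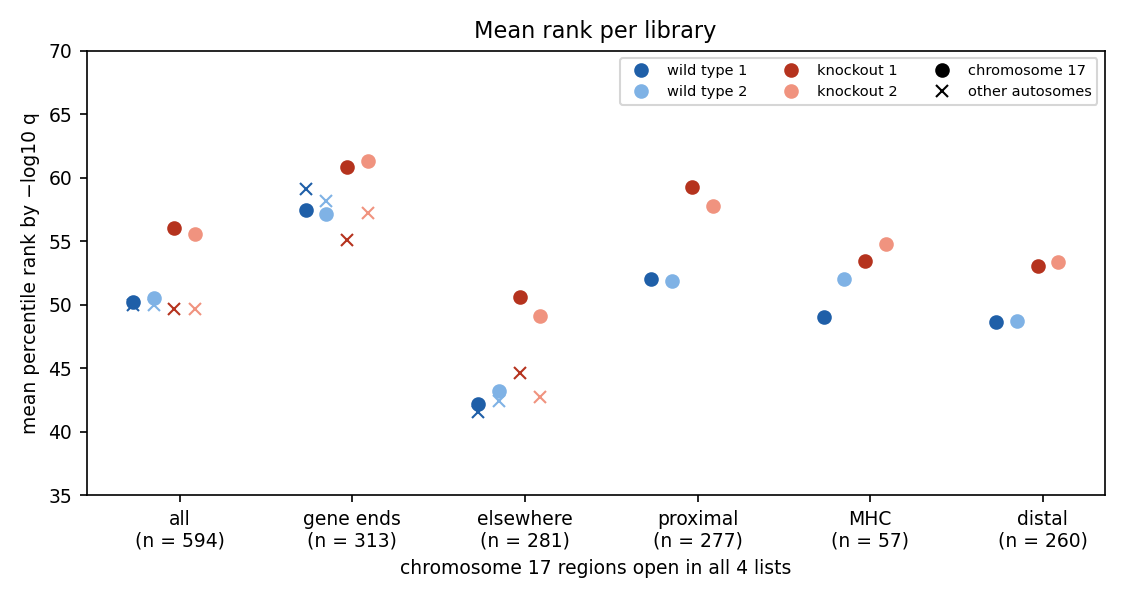
Mean percentile rank by −log10 q in each library for chromosome 17 regions open in all 4 lists (dots) and for the same kind of region on the other autosomes (crosses, first 3 sets), by position; the axis does not start at 0. Both knockout libraries (red shades) lie above both wild-type libraries (blue shades) in all 6 sets of chromosome 17.

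The largest rises in rank lay mostly in the proximal part and away from gene ends. By a fixed rule the 12 regions with the largest smallest-pair rise were taken, and 9 of them were proximal and 1 at a gene end. Of all 594 ranked regions, 277 were proximal and 313 at gene ends. First was a region 53.0 kb from Pim1 (chr17:29437235-29437777), at ranks 7.78 and 9.77 in wild type and 64.3 and 82.9 in knockout. Its summit coverage, which moves with depth, was 50 and 24 fragments in wild type and 41 and 104 in knockout, and its scaled fold enrichment 0.425 and 0.488 against 0.862 and 0.979, so the genotypes lay far apart once each library's depth was taken into account. The next region lay 2.83 kb from Pxt1, a gene named for testis-specific peroxisomal expression (chr17:28930569-28931158), with ranks of 8.70 and 15.8 against 80.3 and 67.8. A region inside Ccnd3, which encodes cyclin D3 of the cell cycle (chr17:47595641-47596082), had 21.0 and 21.7 against 79.6 and 70.9. A region 6.29 kb from Mas1, a receptor for an angiotensin peptide (chr17:12832301-12832547), had 5.92 and 6.59 against 64.3 and 52.7. Among the regions open in all 4 lists, all 4 ranked low in wild type and above the middle in knockout. Within the whole wild-type lists they were not all weak. The regions near Pim1, inside Ccnd3 and near Mas1 stood at percentiles 54.5, 68.8 and 50.3 in wild type 1. In wild type 2 they stood at 25.6, 43.5 and 19.6.

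The other 8 showed the same order of libraries at smaller distances. A region 97.5 kb from the t-complex gene Tcp10c (chr17:13474696-13475091) went from 37.7 and 45.9 to 91.4 and 94.2, the highest knockout ranks of the 12 together with a region with no protein-coding gene within 100 kb (chr17:13590955-13591583, 37.9 and 45.0 to 94.0 and 87.8). Near Epas1 a region 39.9 kb away (chr17:86713694-86713924) went from 0.456 and 2.98 to 39.6 and 36.4. At the gene end of Mta3, which encodes part of the NuRD repressor complex (chr17:83823885-83824170), ranks were 1.03 and 5.61 in wild type and 44.5 and 51.3 in knockout. The other 4 were nearest to or inside Itpr3, an inositol trisphosphate receptor, Scaf8, an RNA polymerase II binding protein, Ergic1, a protein between the endoplasmic reticulum and the Golgi, and the zinc-finger gene Zfp213. These 12 regions, unlike the chromosome as a whole, were higher in both knockout libraries by scaled fold enrichment as well (12 of 12, by 1.43 to 2.02 times), and their background was higher in 12 of 12. They were chosen for the rise in −log10 q, which follows both.

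The 6 largest falls lay in the distal part, which held 260 of the 594 ranked regions. At gene ends were 2 of the 6, next to 313 of the 594. A region inside Runx2 (chr17:44500330-44500780) had ranks of 44.4 and 69.9 in wild type and 10.3 and 19.1 in knockout. The gene end of Cyp1b1, a cytochrome P450 that oxidises steroids and xenobiotics (chr17:79715646-79716107), had 74.3 and 74.5 against 50.2 and 47.5. The gene end of Msh6 (chr17:87974800-87975106), whose promoter is printed above, had 48.2 and 52.3 against 25.5 and 10.6. At Cyp1b1 and Msh6 the replicates lay closer together than the nearest libraries of the 2 genotypes. At Runx2 the wild-type replicates differed by slightly more than the gap between the genotypes. The other 3 were inside Lclat1, a cardiolipin acyltransferase, inside Smchd1, a silencer of the inactive X chromosome, and 9.14 kb from Spdya, an activator of cyclin-dependent kinases. Scaled fold enrichment was lower in both knockout libraries in 6 of 6, by ratios of 0.626 to 0.786, and summit coverage fell in each. These 6 were chosen for the fall in −log10 q, which follows summit coverage and background. Background fell only at Cyp1b1 (0.846 times) and was higher at Spdya and Msh6, where it moved with the rest of the chromosome.

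**Figure D5:**
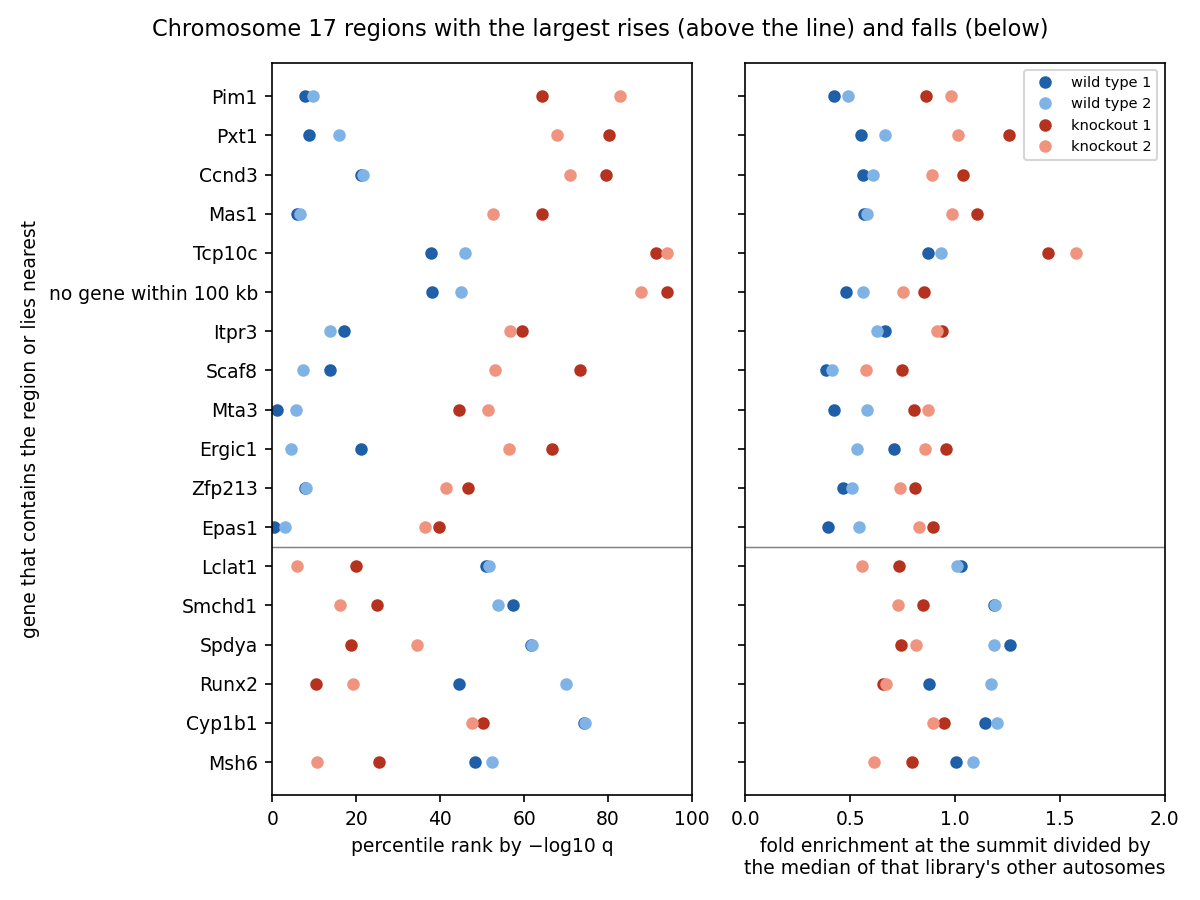
Percentile rank by −log10 q (left) and fold enrichment divided by the other autosomes' median in the same library (right) for the 12 regions with the largest rises and the 6 with the largest falls, by library. Knockout (red shades) lies to the right of wild type (blue shades) in the 12 upper rows and to the left in the 6 lower rows on both scales, as the choice by rank fixes for the left panel.

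The 5 strongest regions were chosen by their mean rank over the 4 libraries, and near the top of the scale a rank has little room to move. The wider group of 160 regions with a mean rank above 75 had ranks of 85.1 and 85.7 in wild type and 89.8 and 89.0 in knockout, and 43.1% of them were higher against 18.5% on other autosomes. The best mean rank belonged to a region outside Myl12b, a myosin light chain gene (chr17:70963654-70963871), at 99.9 and 99.8 in wild type and 99.7 and 99.8 in knockout, with summit coverages of 565 and 343 and then 267 and 412 fragments. A region inside the laminin gene Lama1 and the gene end of the ubiquitin ligase gene Pja2 lay between 98.7 and 99.7 in all 4 libraries. The region inside the homeobox gene Pknox1 (chr17:31570417-31570625) went from 97.8 and 98.7 to 99.1 and 99.0, and its summit coverage and background were higher in both knockout libraries while its scaled fold enrichment overlapped. The fifth, 1830 bp wide with no protein-coding gene within 100 kb (chr17:39843034-39844863), combined summit coverages of 486 to 844 with local backgrounds of 132 to 234, so its fold enrichment was only 3.49 to 3.70. Its background was far above the median of 1.83 to 4.20 on other autosomes.

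The 17 regions found in both knockout lists alone lay in the weaker part of their own lists (median percentile 31.8). None was at a gene end, next to 40.5% of the 1087 regions and 20.3% of those in both wild-type lists alone. The best ranked lay 5.31 kb from T, the Brachyury gene of early mesoderm (chr17:8447808-8447978), at percentiles of 42.0 and 53.9, and 1.24 kb from Tap2, a peptide transporter of antigen processing (chr17:34203081-34203237), at 48.2 and 46.2. Others lay inside Rab11b, a GTPase of recycling endosomes, Tsc2, an inhibitor of mTOR signalling, Galm, an aldose epimerase, Axin1, a scaffold of β-catenin destruction, and Alk, a receptor tyrosine kinase, and 1 had no protein-coding gene within 100 kb. The 2 knockout lists did not rank the weaker of these alike, with Alk at 1.70 and 66.7.

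The 79 regions found in both wild-type lists alone had a median percentile of 36.4, and 16 of them lay at gene ends. A 98 bp region inside Efna5, the ephrin-A5 gene (chr17:62737542-62737639), was by far the strongest, at 99.7 and 99.5 of its lists with −log10 q of 265.5 and 193.7. After it came regions inside Ptchd4 (80.4 and 77.1) and Opn5, a photoreceptor protein of the opsin family (78.2 and 72.9). The gene end of Thbs2, a matrix thrombospondin (chr17:14694031-14694413), had 73.9 and 65.9. A region with no protein-coding gene within 100 kb (chr17:84026321-84026510) had 78.3 and 60.4. Other gene ends of the fixed lists in both wild-type lists alone were those of Runx2, Ltb, a lymphotoxin of the MHC class III block, Hsp90ab1, a cytosolic chaperone, and the kinase genes Prkce and Stk38. No gene end of a fixed list was in both knockout lists alone.

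The authors' deposited list of knockout-enriched regions held 32 regions on chromosome 17. They overlapped 32 of the 1087 regions (2.94%), while 0.671% of the regions on other autosomes overlapped that list. The authors' deposited wild-type-enriched list overlapped 1 of the 1087 (0.0920%), the gene end of Thbs2, next to a background of 0.892%. Of the 32, 18 were proximal, 3 in the MHC and 11 distal, 6 were at gene ends, and 22 were open in all 4 lists. Local background was higher in knockout in 22 of these 22, summit coverage in 21, and scaled fold enrichment in 9, with none lower. Ranks did not overlap between genotypes in 15 of the 22, and all 15 were higher. The list holds regions that the authors called enriched in knockout, so higher values in it follow from the choice. Over all 594 ranked regions, rank was higher in 34.8%, background in 82.8%, summit coverage in 50.5% and fold enrichment in 24.6%. The shares that were lower were 14.5%, 2.86%, 6.90% and 21.4%, in that order. The strongest by their best knockout peak were near Tcp10c and inside Cdsn, a corneodesmosome gene of the MHC (chr17:35549541-35549940), which had ranks of 68.5 and 83.7 in wild type and 88.6 and 91.8 in knockout. Gene ends followed, those of Wdr27 (88.4 and 76.7 against 89.6 and 91.1), Ilrun, a regulator of antiviral signalling (75.9 and 71.9 against 86.8 and 90.6), Rrp36, a ribosome biogenesis factor (89.2 and 69.4 against 86.0 and 88.1), and Wdr90 (68.0 and 71.6 against 89.3 and 76.5). At Rrp36 the genotypes overlapped, since wild type 1 ranked above both knockout libraries. The others among the strongest 12 lay near 1600014C23Rik, Pim1 and Ppm1b, a phosphatase gene, and inside Fer, a tyrosine kinase gene, Dlgap1, a synaptic scaffold gene, and Ccnd3.

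Most class I and class II genes of the MHC had no gene-end region among the 1087, and those that could be ranked mostly overlapped between the genotypes. A missing peak may lie below a list's threshold and does not show closed chromatin. Of 26 class I and class II genes placed on the chromosome, 5 had a gene-end region among the 1087 (H2-K1, H2-D1, H2-T22, H2-DMa and H2-DMb1) and 3 had one open in all 4 lists. H2-D1, a classical class I gene, had ranks of 69.6 and 67.3 in wild type and 52.2 and 83.2 in knockout, and H2-DMa, a class II peptide-loading gene, 64.9 and 80.2 against 66.4 and 71.1, so both overlapped. H2-T22, a non-classical class I gene, was lower, with 7.31 and 14.1 against 0.362 and 0.512. Its summit coverage overlapped between the genotypes and its local background was 1.48 times higher. The class I genes are near-identical copies of one another, so reads at their ends may be split between them. Of the 6 antigen processing genes, 3 had such a region (Tapbp, and Tap1 with Psmb9, which share 1), and the genotypes overlapped at each.

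Of 38 class III genes, which fill the MHC between class I and class II, 20 had a gene-end region open in all 4 lists, of which 2 were higher and 3 lower. Bag6, a chaperone gene, had ranks of 39.8 and 33.0 against 47.4 and 56.0, and Atf6b, a transcription factor gene of the unfolded protein response, 91.7 and 90.5 against 96.9 and 95.4. Hspa1b, a heat shock protein gene with a near-identical neighbour, had 39.0 and 38.2 against 4.57 and 30.3. Skiv2l, of the cytoplasmic RNA exosome, and Abhd16a, a lipase gene, were lower by 3.14 and 2.23 points. Summit coverage overlapped at Hspa1b and Skiv2l and was higher at Abhd16a (1.11 times), and local background was higher at all 3. At the gene ends of other autosomes 15.1% were higher and 26.9% lower.

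Of 44 t-complex genes, 14 had a gene-end region open in all 4 lists, of which 8 were higher and 3 lower. Over all gene ends of chromosome 17 the shares were 31.0% higher and 11.5% lower, so the t-complex genes are to be read against these as well as against the 15.1% and 26.9% of other autosomes. Sod2, the mitochondrial superoxide dismutase gene, had ranks of 79.5 and 79.3 in wild type and 91.6 and 90.8 in knockout. Dynlt1b, Dynlt1c and Dynlt1f, copies of a dynein light chain gene, were all higher, Dynlt1c most (a difference of 24.4 points), but the copies are nearly identical and reads may be shared between them. Tcp1, a subunit of the chaperonin CCT, Tcte3, the pyruvate carrier gene Mpc1 and Tbp, the TATA-binding protein gene, were higher by 2.09 to 7.36 points. Acat2, a thiolase of acetyl-CoA metabolism, Sft2d1 and Pdcd2 were lower by 3.30 to 6.20 points. Their summit coverage was not lower, since it was higher at Sft2d1 (1.07 times) and overlapped at Acat2 and Pdcd2. Of these 11 genes, all but Tcp1 had a higher local background in knockout.

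Of 38 growth control and signalling genes, 18 had a gene-end region open in all 4 lists, of which 8 were higher and 1 lower, again next to 31.0% and 11.5% of all gene ends of the chromosome. The Pim1 promoter region (chr17:29490394-29490822) had ranks of 72.1 and 71.1 in wild type and 95.3 and 84.9 in knockout, a scaled fold enrichment 1.37 times higher and overlapping local backgrounds (1.04 times). Dusp1 (chr17:26508319-26509032) had 24.6 and 42.1 against 49.1 and 60.1, with a fold 1.26 times higher and overlapping backgrounds (1.04 times). At these 2 promoters, printed above, the fold rose without the chromosome's rise in background. Uhrf1, a reader of hemimethylated DNA, had 37.2 and 52.5 against 64.0 and 63.3. Pkd1, the polycystin-1 gene, Mapk14, the p38α kinase gene, Rab5a, an early endosome GTPase gene, Birc6, an inhibitor of apoptosis, and Strn, the striatin gene, were higher by 2.43 to 6.66 points. Ier3, an immediate early gene, was lower (82.1 and 84.4 against 78.4 and 67.6).

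Of 27 mesenchymal and matrix genes, 7 had a gene-end region open in all 4 lists. Fbxo11, a ubiquitin ligase subunit gene, was higher, with ranks of 84.2 and 81.3 against 86.9 and 93.4. Cyp1b1 was lower, as given above, and so was Plin3, a lipid droplet protein gene, with 94.7 and 91.3 against 86.7 and 84.0. Plin3 is counted by its strongest gene-end region, and its second one was higher (36.2 and 17.5 against 37.0 and 45.0). Over the 6 lists, 19 listed genes had a higher and 10 a lower rank. Over all 313 gene ends of chromosome 17 open in all 4 lists, 31.0% ranked higher and 11.5% lower. Of the 19, scaled fold enrichment was higher in 10 and lower in 1 (Mpc1), and of the 10 it was lower in all 10. The genes were chosen by rank, which follows the same summit and background, so these fold directions largely follow from the choice. Of all 86 chromosome 17 regions with a lower rank, 91.9% had a lower fold. Local background was higher in 12 of the 19 and in 8 of the 10. Among the 10, summit coverage was lower only at Ier3, Cyp1b1 and Plin3, and elsewhere it overlapped or was higher. Over all 313 gene ends local background was higher in 255 (81.5%), and fold enrichment was higher in 20.4% and lower in 21.7%.

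Promoters that lay in regions open in all 4 lists had similar GC content on chromosome 17 and elsewhere, while E-boxes and TATA elements were more frequent on chromosome 17, with no test of the difference. The 341 such promoter windows of 250 bases on chromosome 17 (298 genes) had a median GC content of 60.0% and 18 CpG sites, and the 4657 on other autosomes 61.6% and 18. GC boxes were in 66.3% and 68.2% of them, CCAAT boxes in 49.0% and 46.3% and ETS elements in 21.1% and 19.9%. E-boxes were in 46 of the 341 (13.5%) and 419 of the 4657 (8.997%). AP-1 elements were in 2.35% and 3.78%, TATA elements in 6.45% and 3.99%, and cAMP response elements in 4.69% and 3.95%. Over all 21263 promoters AP-1 elements were in 6.13%, TATA elements in 11.6% and ETS elements in 8.98%. The 104 promoters in regions with a higher rank had GC boxes in 65.4% and E-boxes in 15.4%, and the 31 in regions with a lower rank had them in 71.0% and 29.0%, the latter resting on 9 promoters.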

How the data were processed

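ATAC-seq was done on 10T1/2 cells, with 2 wild-type and 2 Ranbp2-knockout libraries, and samples were grouped by the genotype and replicate number in their titles. Per the submitters' processing notes the build was mm10, and the notes list DiffBind 2.2.12 with DESeq2, and MACS2, Bowtie2, cutadapt and deepTools, without saying what each was used for. The authors deposited 1 peak list per library, each called separately, and 2 lists of differential regions given as positions only, with no threshold given in the sources used here. In the deposited lists the score follows the −log10 q, the fold enrichment is the ratio of summit to local background coverage, and the −log10 p and −log10 q of the authors describe the same summit, with a lowest −log10 q of 3.00. Peaks were called over each library's own background, so list length can move with depth and with enrichment over that background. Median fold enrichment of regions open in all 4 lists on other autosomes was 13.7 and 11.3 in wild type. It was 7.99 and 10.1 in knockout. The read depth of the libraries is unknown.

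Peaks of the 4 lists were merged at an overlap of at least 1 bp (Python 3.11.15, pandas 2.3.3, numpy 2.4.6). In each list the highest −log10 q, −log10 p and fold enrichment of a region were each kept. Summit coverage and local background were those of its peak with the highest −log10 q. Where a list had several peaks in a region, the fold enrichment may come from another of them. Ranks are percentiles by −log10 q among the 10647 autosomal regions open in all 4 lists. The deposited fold enrichment was read as (summit coverage + 1) / (background + 1) and the −log10 p as a Poisson tail, and both quantities were solved for. The lowest background in a list, 1.97 and 0.845 in wild type and 1.37 and 2.08 in knockout, ranks the libraries by depth but gives no read number. By it knockout 2 came first and wild type 2 last, while wild type 1 had the longest list and knockout 1 the shortest. The scripts were tested on simulated data. Gene positions came from RefSeq on GRCm38.p6, which shares primary coordinates with mm10 (21778 protein-coding genes, 1046 of them on chromosome 17). Rows that carried scaffold coordinates were left out. Windows of 5 Mb were counted from coordinate 0 by region midpoint, with at least 20 regions each. Without a genome sequence, only promoter sequences from the RefSeq table are printed.

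Named regions were the 12 largest rises and 6 largest falls in rank over the smallest pair, the 5 strongest regions, the 8 knockout-only and 5 wild-type-only regions best ranked in their lists, the 12 strongest deposited knockout-enriched regions, the deposited wild-type-enriched region, and genes of 6 lists whose gene ends did not overlap between genotypes. The chromosome, the members and the gene lists were chosen with earlier results of these data known. With 2 libraries against 2, an exact two-sided permutation test cannot give a p below 0.333, so no test is reported. Replicate numbers are shared by the genotypes, but nothing in the labels ties same-numbered libraries together. Some listed genes are not reported here.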

Additional observations from a re-analysis of the deposited data

How the results depend on the processing

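The mean rank shift of chromosome 17 against the other autosomes (5.71 points over all regions, 6.22 at gene ends, 5.55 elsewhere) kept its sign in all settings run but 1, the ranking by fold enrichment. That ranking gave -0.804, -0.403 and -0.902 points, 19.7% of regions higher in both knockout libraries (22.1% on other autosomes) and 2 windows higher in all 4 pairs. Ranking by recovered summit coverage, chosen after seeing the data, gave 10.3, 11.1 and 9.85 points and 50.3% of regions (22.4%), and ranking by local background 18.96, 20.4 and 17.8 points and 87.7% (29.2%). Lists of equal length gave 6.65, 7.35 and 5.99 points, a difference in the share of peaks of 0.539 instead of 0.926 percentage points, 61 knockout-only (8.18%, other autosomes 6.88%) and 40 wild-type-only regions (5.36% and 8.51%). Percentiles in the whole list gave 4.29, 4.51 and 4.26 points, 10.9% of regions (6.32%) and 0 windows, since whole lists differ in length. Without the deposited differential regions the shifts over all regions and elsewhere were 4.97 and 4.40 points. Against a reference without chromosomes 1, 8, 9, 10, 13, 15, 18 and 19 they were 4.81, 5.27 and 4.64 points. Peaks with a −log10 q of at least 5 alone gave a difference in share of 0.830 points.

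Leaving out 1 library at a time gave shifts of 4.80 to 5.95 points over all regions, 5.22 to 6.97 at gene ends and 4.50 to 5.47 elsewhere, 9 to 12 windows, 46.4% to 51.3% of regions (32.3% to 36.2% on other autosomes), since fewer pairs had to agree in direction, and a difference in share of 0.845 to 1.01 points. Knockout-only regions ran from 19 (without wild type 2) to 304 (without knockout 1) and wild-type-only regions from 81 (without knockout 1) to 498 (without wild type 2). Of 110 alternative values, 67 stayed close to the reported one, 40 moved and 3 changed sign. With a replicate block, pairs by the replicate number of the titles gave 6.12 and 5.30 points, with a mean of 5.71 as without it. The replicate differences of the genotypes correlated at r = 0.0329 over 10647 regions. This value cannot show whether same-numbered libraries shared a culture or a run. By the numbers in the library names only the pair of replicate 2 would match. The number of reads behind the lists is unknown, and a region missing from the shorter lists may lie below their threshold.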
